A study of Mus musculus with 2 samples.

Results

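The angiopoietin-Tie and apelin pathways were followed through 8 genes of the 33696 counted: the ligands Angpt1, Angpt2 and Apln, the receptors Tek, Tie1 and Aplnr, the phosphatase Ptprb and the tip cell marker Esm1. They were taken as a named list, and each was read in 4 classes of cells that were set by other genes. The cells came from PyMT-M and PyMT-N tumors, lines of the MMTV-PyMT mouse mammary model grown in the mammary fat pad of female C57BL/6 mice of 6 to 8 weeks. PyMT-M stands for the macrophage-rich state (High-MAC) and PyMT-N for the macrophage-poor state with more neutrophils (Low-MAC), and how vessels differ between such tumors was the question of the study. In both arms cells carrying CD45 or Ter119 were depleted, cells with CD31 and CD144 were enriched on beads and sorted, and the cells of 3 tumors were pooled into a single 10x Genomics 3′ library. The sample notes name collagenase I for the digestion, whereas the study's methods name collagenase II with dispase II. With 1 library per state no difference between PyMT-M and PyMT-N could be tested. Every interval given here is therefore a 95% interval of counting error and covers neither tumor nor library. Intervals of levels and ratios count UMIs as independent, so they also leave out the spread between cells. A pooled library also carries 1 transplanted line per state, so the line and the immune state cannot be told apart.

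Angiopoietins are secreted ligands of the endothelial receptor tyrosine kinase Tie2, which Tek encodes. Angpt1, made mainly by cells around vessels, activates Tie2 and keeps vessels quiet, whereas Angpt2, stored and released by endothelial cells themselves, is a context-dependent antagonist that loosens vessels for sprouting. Tie1 is an orphan partner that modulates Tie2, and Ptprb encodes VE-PTP, a phosphatase that removes phosphate from Tie2 and protects endothelial junctions. Apelin, from Apln, is a peptide of sprouting tip cells and acts on the G protein-coupled receptor Aplnr, which is typical of veins and of the endothelial cells behind the tip. Esm1 encodes endocan, a proteoglycan that tip cells secrete in tumors and in the growing retina.

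The files list the genes as Angpt1 (ENSMUSG00000022309), Angpt2 (ENSMUSG00000031465), Tek (ENSMUSG00000006386), Tie1 (ENSMUSG00000033191), Ptprb (ENSMUSG00000020154), Apln (ENSMUSG00000037010), Aplnr (ENSMUSG00000044338) and Esm1 (ENSMUSG00000042379). RefSeq promoter sequence on GRCm38.p6 was at hand for 4 of the 8 genes, Apln, Esm1, Tek and Tie1. The 250 bases upstream of the start of Apln (chrX:48034854-48035103, minus strand) and of Esm1 (chr13:113209409-113209658, plus strand) are shown. These were chosen because Esm1 was detected more often in blood endothelial cells with Apln than in those without. Capitals mark GGAA or its reverse complement TTCC, the core letters that ETS factors read in endothelial genes.
Apln: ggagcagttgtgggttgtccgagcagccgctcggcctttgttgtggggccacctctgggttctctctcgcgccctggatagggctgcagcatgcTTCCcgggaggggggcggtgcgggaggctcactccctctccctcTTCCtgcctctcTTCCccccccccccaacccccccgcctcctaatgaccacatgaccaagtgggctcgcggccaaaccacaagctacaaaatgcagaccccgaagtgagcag
Esm1: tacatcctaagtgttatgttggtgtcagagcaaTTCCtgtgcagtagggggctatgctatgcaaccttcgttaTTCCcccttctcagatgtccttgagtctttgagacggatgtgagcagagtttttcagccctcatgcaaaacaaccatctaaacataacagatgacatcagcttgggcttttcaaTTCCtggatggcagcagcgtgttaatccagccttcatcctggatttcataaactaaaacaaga

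Both windows held 3 copies of the GGAA core over both strands, the Tek window held 2 and the Tie1 window 7. This says little about the genes, since 93.4% of 32851 RefSeq windows of the same length held at least 1. The longer CAGGAA was found once in Apln and Tie1 and 2 times in Esm1 and Tek, against 25.7% of all windows with at least 1, and CCGGAA in none of the 4, against 12% of all windows. ACGTG, 1 form of the core of the hypoxia response element, was in none of the 4 windows either and in 16.6% of all windows. The other form, GCGTG, was not counted, and the Esm1 window shown above holds it. CAGGAA and GGAA were chosen after the sequences had been read, and both longer ETS motifs contain GGAA.

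The PyMT-M library held 7821 barcodes with 141067264 unique molecular identifiers (UMIs), and the PyMT-N library held 6974 with 116150425. Cells with at least 200 genes and at most 10% mitochondrial UMIs numbered 6719 for PyMT-M and 5607 for PyMT-N, and 20 barcodes occurred in both libraries. Blood endothelial cells, with at least 5 UMIs of Pecam1, Flt1, Emcn and Kdr and at most 1 of Krt8, Krt18 and Rhox5, were 589 of the kept PyMT-M cells (8.77%) and 1069 of the kept PyMT-N cells (19.1%). Lymphatic endothelial cells, with at least 3 UMIs of Prox1, Mmrn1 and Reln, numbered 20 for PyMT-M and 207 for PyMT-N, of which 8 and 174 also met the blood rule. Tumor cells, with at least 3 UMIs of Krt8, Krt18 and Rhox5 and none of Pecam1 or Flt1, numbered 4890 and 3297, although all cells had passed the endothelial sort. Fibroblasts, with at least 3000 UMIs per 1000000 (CPM) of Col3a1, numbered 45 and 54, and 1162 and 971 cells met no rule.

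The blood and lymphatic classes were checked on markers that no class rule had used. The tumor and fibroblast classes were not checked in this way. The 6 endothelial ones, Cdh5, Cldn5, Egfl7, Esam, Erg and Cd34, summed to 4717 CPM in the blood class for PyMT-M and 4828 for PyMT-N, against 39.7 and 10.9 CPM in tumor cells. The 4 lymphatic ones, Lyve1, Ccl21a, Flt4 and Pdpn, summed to 3404 and 12997 CPM in the lymphatic class, against 61.8 and 139 CPM in the blood class. Depth differed, as the median blood endothelial cell held 5202 UMIs in the PyMT-M library and 12661 in the PyMT-N library. Markers of other cells also moved with the library in the blood class. All 7 myeloid markers had UMIs in PyMT-N, summed to 336 CPM, and 6 of 7 in PyMT-M, summed to 30.9 CPM. All 6 lymphocyte markers were seen in both, at 118 CPM in PyMT-N and 11.5 CPM in PyMT-M. Of 8 mural markers all had UMIs for PyMT-M and 7 for PyMT-N. Rgs5 stood at 50 CPM for PyMT-M and 2.88 for PyMT-N and Acta2 at 118 and 1.74, whereas Kcnj8 and Abcc9 were the higher ones in PyMT-N, with a list sum of 231 and 267 CPM. Ratios without the cells that hold immune markers, or mural markers other than Kcnj8 and Abcc9, are given after the main ones.

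Each gene had its own distribution over the 4 classes. Blood endothelial cells carried 6 of the 7 genes other than Angpt1 at a higher level than any other class in PyMT-N, and lymphatic cells carried the remaining one, Angpt2. Angpt1 was highest there in fibroblasts and tumor cells. Aplnr, Esm1 and Apln were low outside blood endothelium, whereas Tek, Tie1 and Ptprb were shared with the lymphatic class.

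**Figure D1:**
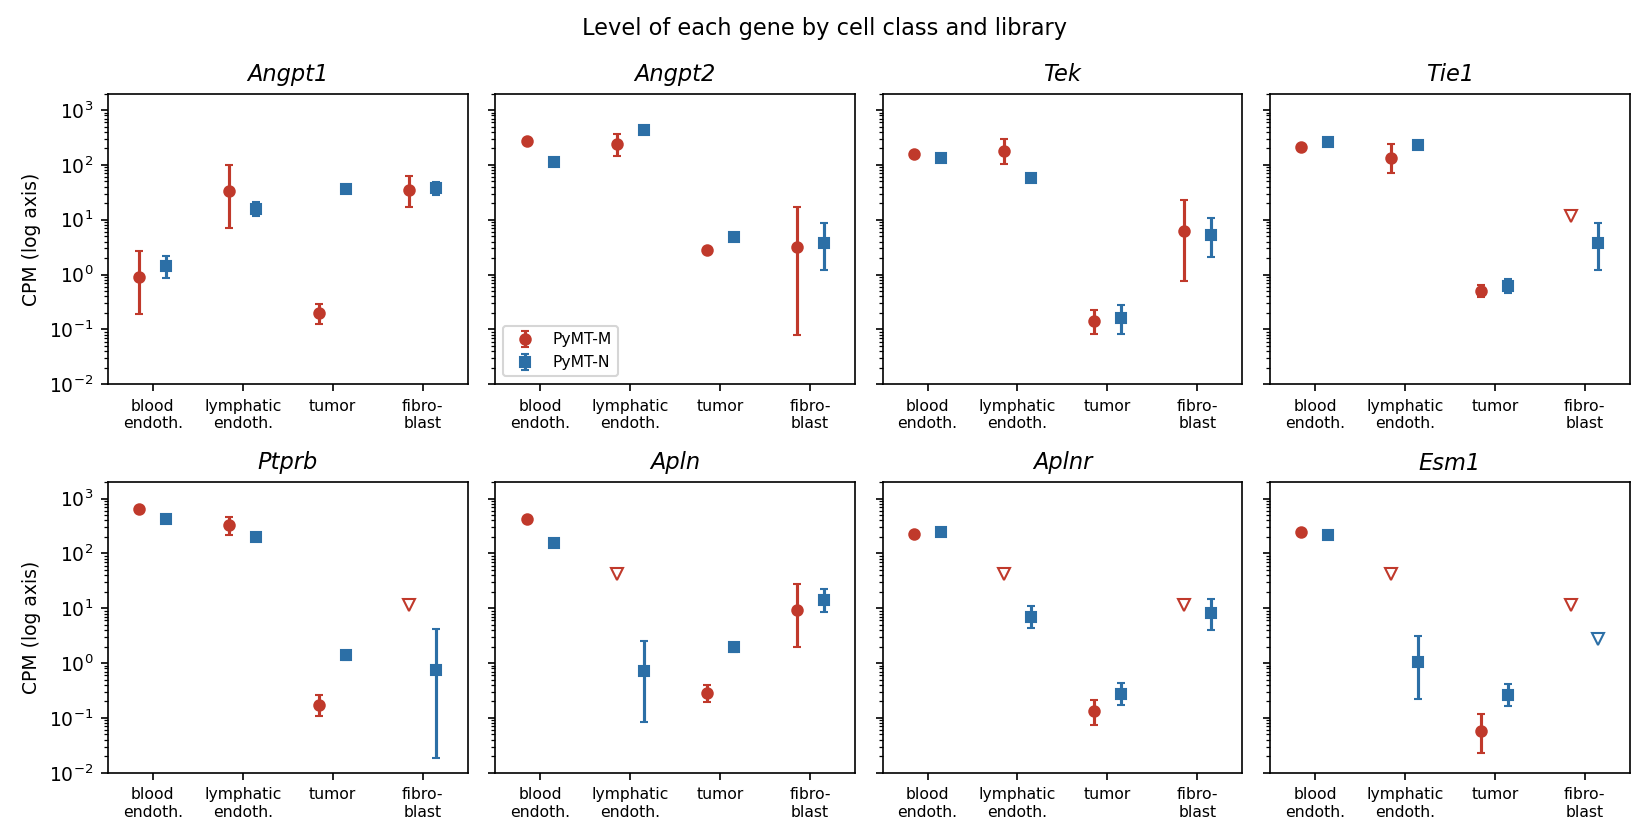
Level of each gene in CPM on a log axis, by cell class, in PyMT-M (circles) and PyMT-N (squares). Bars are exact Poisson 95% intervals, and open triangles mark the upper limit where a class had no UMI. Angpt1 stood at 0.199 CPM in PyMT-M tumor cells and 36.4 CPM in PyMT-N tumor cells, and Angpt2 at 438 CPM in PyMT-N lymphatic cells.

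Among the ligands, Apln had 1420 UMIs in PyMT-M blood endothelial cells, a level of 430 CPM (408 to 453), and 2340 UMIs in PyMT-N, a level of 157 CPM (150 to 163). The level was 2.75-fold higher in PyMT-M, a log2 ratio of 1.46 (1.36 to 1.56). Angpt2 had 910 UMIs and 276 CPM (258 to 294) in PyMT-M against 1656 UMIs and 111 CPM (106 to 116) in PyMT-N. This was a 2.49-fold higher level in PyMT-M, a log2 ratio of 1.32 (1.20 to 1.43). Both sprouting ligands were thus higher in the macrophage-rich library, beyond counting error. Angpt1 had 3 UMIs in the PyMT-M blood class and 21 in the PyMT-N one, too few for a ratio to be read.

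A sum of 50 UMIs in the libraries together was asked of a gene before it was ranked, which left 11553 genes in the blood class, 7 of them from the set. The median log2 ratio over all ranked genes was -0.0047. Apln and Angpt2, 2 of these 7, were at least 2-fold higher in PyMT-M, as were 4.1% of all ranked genes. None was at least 2-fold lower, against 6.93% of all ranked genes, and 11% passed that fold in either direction. Only 1.62% of the ranked genes had a higher ratio than Apln and 2.09% a higher one than Angpt2. In bulk sums of a class, more cells with a transcript and more transcript per cell cannot be told apart. Shares of cells were read as well, although a share also rises with the mean level.

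The phosphatase gene Ptprb stood at 644 CPM (617 to 672) in PyMT-M and 418 CPM (408 to 429) in PyMT-N, which gave a log2 ratio of 0.62 (0.55 to 0.69). The receptor gene Tek differed less, at 155 CPM (141 to 169) and 131 CPM (125 to 137), with a log2 ratio of 0.24 (0.10 to 0.38). Tie1 leaned the other way, from 213 CPM (198 to 229) in PyMT-M to 257 CPM (249 to 265) in PyMT-N, which gave a log2 ratio of -0.27 (-0.39 to -0.15). The Tie receptor genes and the phosphatase that acts on Tie2 therefore did not share a direction. The apelin receptor gene Aplnr was at 226 CPM (210 to 243) in PyMT-M and 243 CPM (236 to 252) in PyMT-N, and its log2 ratio of -0.11 (-0.22 to 0.01) has an interval that spans 0. It ran from -0.46 with cells thinned to 5000 UMIs to 0.080 with lymphatic cells kept, and the interval lay below 0 in 7 of the 11 other settings that gave one. Esm1 was at 241 CPM (225 to 259) and 212 CPM (205 to 220), a log2 ratio of 0.18 (0.07 to 0.30). The ligand gene Apln and its receptor gene Aplnr thus differed in how the libraries compared, as did Angpt2 and Tek.

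**Figure D2:**
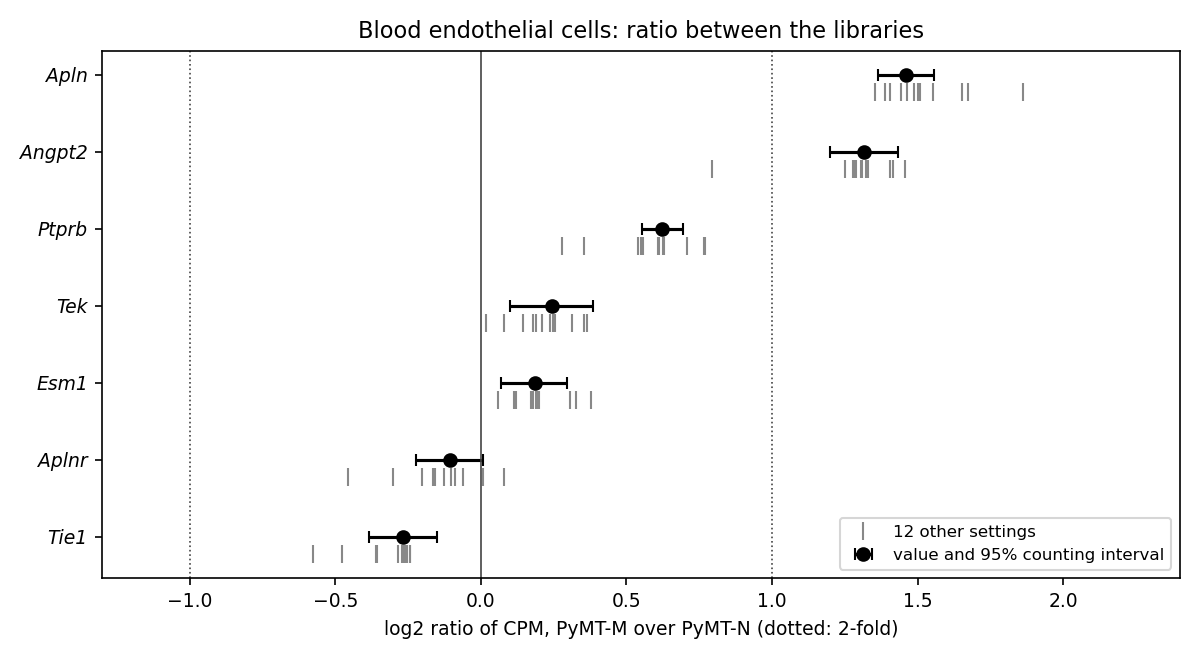
Log2 ratio of CPM, PyMT-M over PyMT-N, in blood endothelial cells for the 7 ranked genes. Points with bars are the values with 95% counting intervals, grey ticks are the values under 12 other settings, and dotted lines mark a 2-fold difference. Apln at 1.46 and Angpt2 at 1.32 lie beyond 2-fold, and 1 tick for Angpt2, with lymphatic cells kept in the class, lies at 0.79.

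Some of these ratios moved with the cells counted. When the lymphatic cells that also met the blood rule were kept, the Angpt2 ratio was 0.79 (0.68 to 0.90) and no longer 2-fold. This added 8 cells to PyMT-M and 174 to PyMT-N. When each cell was thinned to 5000 UMIs, with 306 PyMT-M and 1022 PyMT-N cells deep enough, the ratio of Apln was 1.86, that of Ptprb 0.28 and that of Tek 0.018. Without the cells that held at least 2 UMIs of immune markers the ratio was 1.41 for Apln, 1.28 for Angpt2, 0.54 for Ptprb, 0.15 for Tek, -0.36 for Tie1, -0.20 for Aplnr and 0.12 for Esm1. Cells with at least 2 UMIs of the mural markers Rgs5, Pdgfrb, Cspg4, Notch3, Des and Acta2 were left out in another setting. Kcnj8 and Abcc9 were not part of that filter, which kept 579 PyMT-M and 1056 PyMT-N cells. The ratio was then 1.51 for Apln, 1.31 for Angpt2, 0.61 for Ptprb, 0.25 for Tek, -0.26 for Tie1, -0.09 for Aplnr and 0.20 for Esm1. Both of these settings were chosen after seeing the data.

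At 5000 UMIs per cell the share of blood endothelial cells with a UMI gave the same picture for the ligands. Apln was detected in 57.8% (52.1 to 63.4%) of PyMT-M cells and in 26.3% (23.6 to 29.1%) of PyMT-N cells. Angpt2 was detected in 50.3% (44.6 to 56.1%) and 26.0% (23.4 to 28.8%). Without thinning the gap was narrower, at 47.7% of the shallower PyMT-M cells and 36.6% of the deeper PyMT-N cells for Apln. For Angpt2 the shares were 45.8% and 42.5%. These shares cover the whole class, whereas the thinned ones left out 283 PyMT-M and 47 PyMT-N cells below 5000 UMIs. The cells counted therefore differed as well as the depth. Thinned to 3000 UMIs, Apln was detected in 45.2% of 482 PyMT-M cells and 20.7% of 1062 PyMT-N cells. Angpt2 was detected in 39.0% and 17.9% of these cells. Tumor cells, with a median of 23724.5 and 20770 UMIs before thinning, had an Apln share of 0.185% and 0.820% and an Angpt2 share of 1.39% and 2.22% at the same 5000 UMIs. All blood endothelial shares given here were above these.

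The upper end of the distribution differed too. Cells with at least 5 Apln UMIs after thinning were 19.6% for PyMT-M and 3.91% for PyMT-N, and cells with at least 5 Angpt2 UMIs were 8.50% and 2.35%. The top 31 of 306 PyMT-M cells held 45.8% of the Apln UMIs, and the top 103 of 1022 PyMT-N cells held 70.2%. For Angpt2 these top cells held 48.5% of the UMIs for PyMT-M and 68.3% for PyMT-N. Thinned cells with Apln held a mean of 4.29 Apln UMIs for PyMT-M and 2.59 for PyMT-N. Such shares move with the mean level, so more cells with Apln and more Apln per cell were not told apart.

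The other genes were detected in more similar shares. Esm1 was found in 36.3% (30.9 to 41.9%) of thinned PyMT-M cells and in 28.4% (25.6 to 31.2%) of PyMT-N cells, with overlapping intervals. Aplnr was found in 43.8% (38.2 to 49.6%) and 45% (41.9 to 48.1%), and Tek in 42.2% (36.6 to 47.9%) and 41.8% (38.7 to 44.9%). For these 2 receptor genes the shares differed by less than counting error at this depth. Cells with at least 5 Aplnr UMIs were nonetheless 4.25% for PyMT-M and 9.20% for PyMT-N. Tie1 was found in 58.8% (53.1 to 64.4%) of PyMT-M cells and 68.5% (65.5 to 71.3%) of PyMT-N cells, and Ptprb in 76.5% (71.3 to 81.1%) and 71.1% (68.2 to 73.9%).

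**Figure D3:**
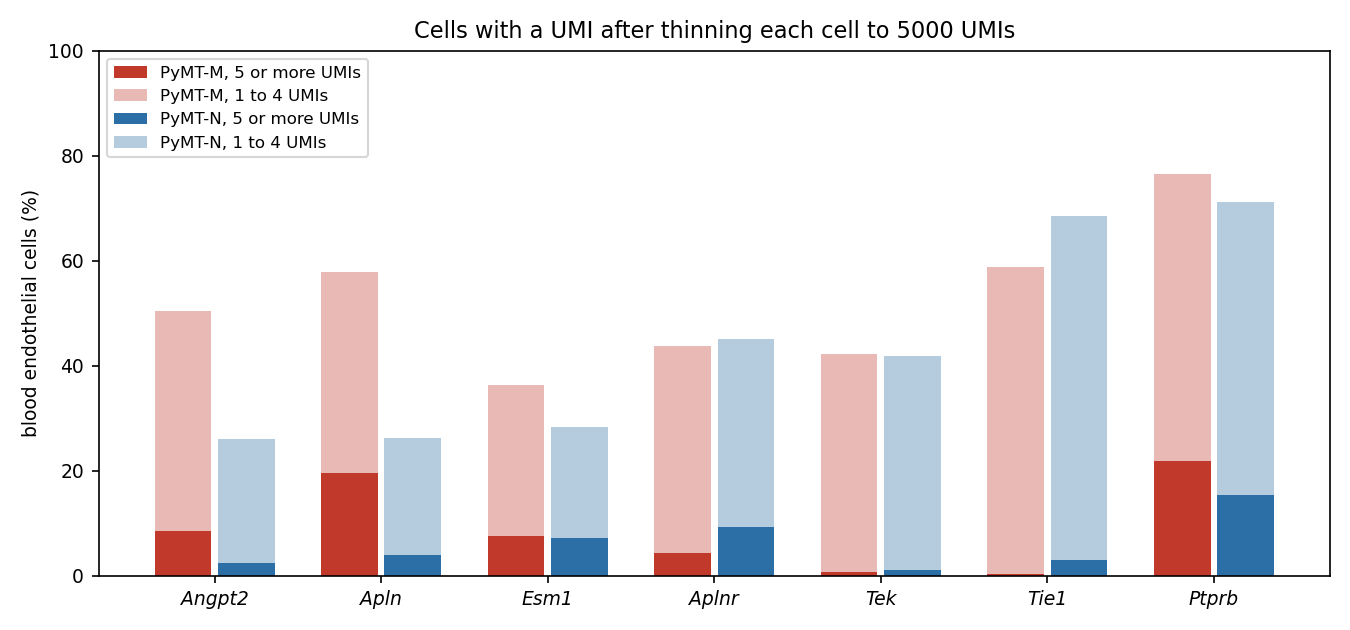
Share of blood endothelial cells, in percent, with 1 to 4 UMIs (pale) and with 5 or more UMIs (dark) of each gene after thinning every cell to 5000 UMIs, in 306 PyMT-M (red) and 1022 PyMT-N (blue) cells. The bars of Apln reach 57.8% for PyMT-M and 26.3% for PyMT-N, and those of Tek 42.2% and 41.8%.

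Lymphatic cells showed a different set of genes. In PyMT-N, Angpt2 had 1241 UMIs in 207 lymphatic cells, 438 CPM (414 to 463), and was detected in 85.0% of them. This was 3.95-fold the level of PyMT-N blood endothelial cells, a log2 ratio of 1.98 (1.87 to 2.09), and 3.85% of 11728 ranked genes had a higher ratio. In PyMT-M the 20 lymphatic cells held 21 UMIs, 236 CPM (146 to 361), and their log2 ratio over blood of -0.23 (-0.92 to 0.40) was within counting error. Of all Angpt2 UMIs in kept PyMT-N cells, 34.0% lay in lymphatic and 45.3% in blood endothelial cells, while in PyMT-M the shares were 1.39% and 60.2%.

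Apln, Aplnr and Esm1 were low or undetected in the same lymphatic cells. PyMT-N lymphatic cells held 2 UMIs of Apln, 3 of Esm1 and 20 of Aplnr, the last in 2 of the 207 cells. Against blood endothelium the log2 ratios were -7.79 (-10.8 to -5.94) for Apln, -7.65 (-9.93 to -6.10) for Esm1 and -5.11 (-5.82 to -4.48) for Aplnr. The PyMT-M lymphatic cells held none of the 3, which allows up to 33.7 CPM at the 3 counts that a count of 0 allows. Apln, Aplnr and Esm1 therefore marked blood over lymphatic endothelium in PyMT-N, and the 20 cells of PyMT-M showed no UMI against that.

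The Tie receptor genes were present in lymphatic cells. Tie1 stood at 233 CPM (216 to 252) in PyMT-N lymphatic cells and 257 CPM in blood endothelial cells, a log2 ratio of -0.14 (-0.26 to -0.02). Tek was lower, at 57.5 CPM (49.0 to 67.0) against 131 CPM, a log2 ratio of -1.18 (-1.42 to -0.95). Ptprb was lower as well, at 201 CPM (185 to 218) against 418 CPM, a log2 ratio of -1.06 (-1.18 to -0.93). PyMT-N lymphatic cells were thus high in the ligand gene Angpt2 and lower in the gene of its receptor Tie2. Among the 8 genes in this comparison, 2 were at least 2-fold higher and 5 at least 2-fold lower in lymphatic cells, against 8.78% and 10.5% of ranked genes.

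Between the libraries, the 4 genes ranked in lymphatic cells included 1 that was at least 2-fold higher in PyMT-M, against 8.87% of 7569 ranked genes, and none that was at least 2-fold lower, against 14.2%. The higher one was Tek, with 16 UMIs and 180 CPM (103 to 292) in PyMT-M against 163 UMIs and 57.5 CPM in PyMT-N, which gave a log2 ratio of 1.64 (0.80 to 2.39). Angpt2 was lower in PyMT-M, with a log2 ratio of -0.89 (-1.59 to -0.27). These ratios rest on 20 PyMT-M cells with a median of 3558 UMIs, of which 5 held Angpt2 and 8 held Tek. The lymphatic markers outside the rule were also lower in this PyMT-M class, at 3404 against 12997 CPM. Within PyMT-M the log2 ratio of Tek in lymphatic over blood endothelial cells was 0.22 (-0.60 to 0.93). Whether other cells in the class contributed to these ratios was not tested.

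Angpt1, the Tie2 agonist, was found outside the endothelium. PyMT-N tumor cells had 2740 UMIs, 36.4 CPM (35.0 to 37.7), and 985 of 3297 cells (29.9%) held at least 1. PyMT-M tumor cells had 24 UMIs, 0.199 CPM (0.127 to 0.296), in 10 of 4890 cells. The level was 183-fold lower in PyMT-M, a log2 ratio of -7.51 (-8.16 to -6.94). The tumor lines differed widely at large, with 21% of 14974 ranked genes at least 2-fold higher in PyMT-M and 25.6% at least 2-fold lower. Of the 5 ranked genes of the set, 3 were lower and none higher, and 96.5% of ranked genes had a higher ratio than Angpt1. At 5000 UMIs per cell the shares of tumor cells with Angpt1 were 12.8% (11.6 to 13.9%) in PyMT-N and 0.103% (0.0333 to 0.239%) in PyMT-M.

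Fibroblasts held Angpt1 at like levels in both libraries, with 11 UMIs and 34.4 CPM (17.2 to 61.5) in PyMT-M and 51 UMIs and 37.8 CPM (28.1 to 49.7) in PyMT-N. The log2 ratio of -0.14 (-1.23 to 0.82) leaves a wide interval. Fibroblasts were few, and 77.8% of the Angpt1 UMIs in kept PyMT-N cells lay in tumor cells and 1.45% in fibroblasts. In PyMT-M the whole library held 54 Angpt1 UMIs in kept cells, of which 44.4% lay in tumor cells and 20.4% in fibroblasts. Mural cells, known as a main source of Angpt1, could hardly be read. Only 7 PyMT-M and 4 PyMT-N cells had at least 3 UMIs of Rgs5, Kcnj8, Notch3 and Abcc9, none of Pecam1 or Flt1 and at most 1 of the tumor markers, a set chosen after the data had been seen, and they held 1 and 7 Angpt1 UMIs.

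Angpt1 also appeared in PyMT-N lymphatic cells, with 45 UMIs in 13 cells, 15.9 CPM (11.6 to 21.2). Tumor markers in that class summed to 121 CPM. With cells of more than 1 tumor marker UMI left out, 194 cells remained and Angpt1 stood at 7.68 CPM (4.62 to 12).

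Within PyMT-N tumor cells, Angpt1 was at 44.9 CPM (39.2 to 51.3) in the 129 cells with at least 5 UMIs of the cycling list and at 35.8 CPM (34.4 to 37.2) in the other 3168. A single cycling cell held 54 of the 221 UMIs. In PyMT-M the cycling tumor cells were 3649 of the 4890, with 4 Angpt1 UMIs, and the other 1241 had 20. Apln was low in tumor cells, at 0.282 CPM in PyMT-M and 1.92 CPM in PyMT-N, and in the latter it was at 10.4 CPM (7.72 to 13.6) in cycling cells and 1.33 CPM (1.08 to 1.63) in the others. The cycling cells of PyMT-N thus carried more of the Apln message than the rest, at a level still far below that of blood endothelial cells.

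Blood endothelial cells were then ordered by the share of their UMIs in lists of genes that hold none of the 8, and cut in each library into 3 groups of equal size, 196 to 197 cells in PyMT-M and 356 to 357 in PyMT-N. The groups are ranges and not cell types, and their list shares were not matched between the libraries. The tip cell list holds 11 genes of sprouting endothelium, such as Dll4, Adm and Cxcr4. The genes differed in how they went with its share. In the PyMT-M group with the lowest share Angpt2 was at 79.8 CPM (63.5 to 99.1) and in that with the highest share at 490 CPM (451 to 532). In PyMT-N the values were 47.7 CPM (41.9 to 54.1) and 219 CPM (206 to 233). Esm1 went from 63.3 to 356 CPM in PyMT-M and from 82.9 to 365 CPM in PyMT-N. Both genes were thus higher with the tip cell list in both libraries, and Esm1 reached nearly the same level in each.

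Apln spanned a wider range in PyMT-M. It went from 146 CPM (124 to 171) to 769 CPM (719 to 822) there, and from 126 CPM (116 to 136) to 197 CPM (184 to 209) in PyMT-N. Among the cells lowest in the list the libraries were close, and among the cells highest in it they were far apart. The tip cell list itself was at 1764 CPM in PyMT-M and 2386 CPM in PyMT-N over the whole class, so these groups do not hold like shares. Whether this gap in Apln itself differs between the states could not be tested.

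Aplnr, Tek and Ptprb ran the other way. Aplnr went from 385 CPM (348 to 425) in the lowest group to 87.8 CPM (71.5 to 107) in the highest in PyMT-M, and from 407 CPM (390 to 425) to 61.3 CPM (54.5 to 68.7) in PyMT-N. Tek went from 205 to 106 CPM in PyMT-M and from 183 to 79.9 CPM in PyMT-N. Ptprb went from 780 to 378 CPM and from 548 to 289 CPM. The receptor gene Tie1 did not follow its partner Tek and was higher with the list, at 171 and 234 CPM in PyMT-M and at 176 and 325 CPM in PyMT-N. Cells high in tip genes were therefore those with most Angpt2 and Esm1 and least Aplnr and Tek. Median depth ranged from 4671 to 5494 UMIs over these groups in PyMT-M and from 12459 to 12904 in PyMT-N.

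**Figure D4:**
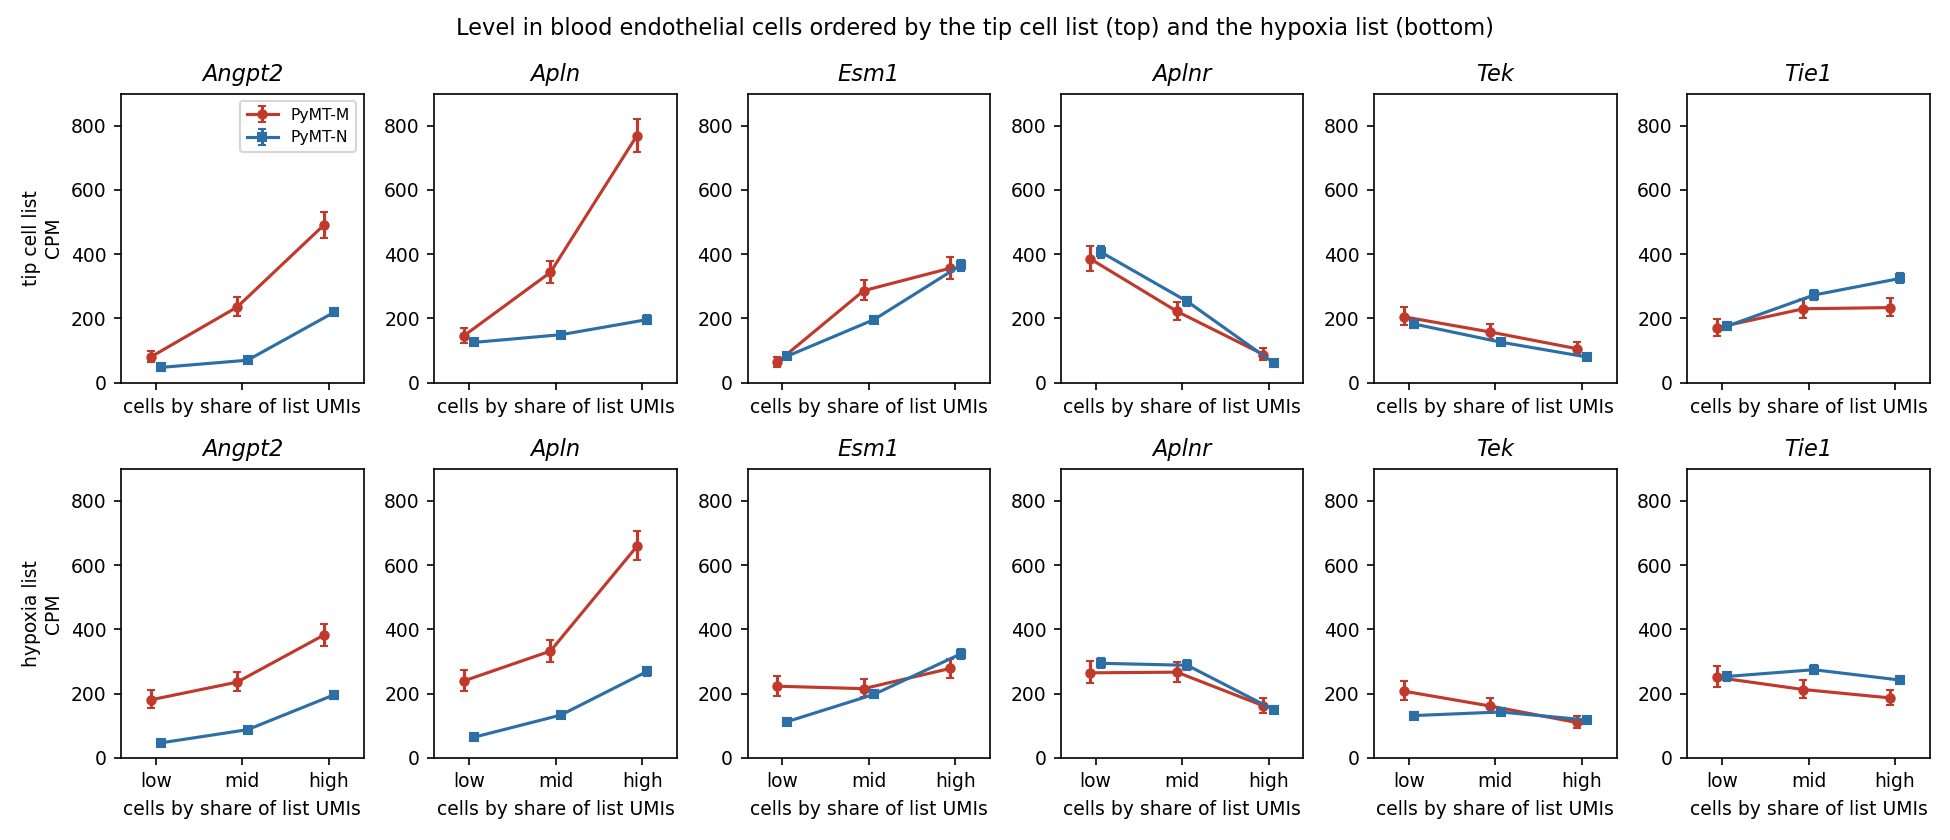
Level in CPM of 6 genes in blood endothelial cells cut into 3 groups of equal size by their share of UMIs in the tip cell list (top row) and in the hypoxia list (bottom row), in PyMT-M (red circles) and PyMT-N (blue squares), with exact Poisson 95% intervals. Angpt2, Apln and Esm1 slope upward with the tip cell list and Aplnr and Tek downward, Aplnr from 385 to 87.8 CPM in PyMT-M.

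The hypoxia list holds 10 genes: Vegfa, Slc2a1, Ldha, Pgk1, Bnip3, Ankrd37, Egln3, Ero1a, Ndrg1 and P4ha1. Apln, a known target of hypoxia, went from 239 CPM (209 to 273) in the lowest group to 658 CPM (614 to 705) in the highest in PyMT-M and from 64.4 CPM (57.5 to 72.0) to 269 CPM (255 to 284) in PyMT-N. Angpt2 went from 180 to 382 CPM and from 46.7 to 196 CPM. Esm1 was at 223 and 278 CPM in PyMT-M and at 113 and 323 CPM in PyMT-N. In every one of the 3 groups Apln and Angpt2 were higher in PyMT-M than in PyMT-N, with intervals apart. The groups were cut within each library, so their hypoxia shares were not matched between the libraries. A part of hypoxia in the gap was not tested. The hypoxia list itself was at 1185 CPM in PyMT-M and 1010 CPM in PyMT-N over the whole class.

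Vessel type lists gave a further contrast. With the venous list, Aplnr was at 116 CPM in the lowest and 375 CPM in the highest group in PyMT-M and at 232 and 275 CPM in PyMT-N. Tek was at 109 and 235 CPM in PyMT-M and at 99.5 and 174 CPM in PyMT-N, and Ptprb at 412 and 961 CPM and at 253 and 696 CPM. The Tie2 gene Tek and the phosphatase gene Ptprb were thus higher in cells with more venous transcripts in both libraries. Apln was lower there, at 611 and 221 CPM in PyMT-M and at 169 and 125 CPM in PyMT-N.

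With the arterial list, Apln was at 542 CPM in the lowest and 165 CPM in the highest group in PyMT-M and at 206 and 59.5 CPM in PyMT-N. Tie1 was at 182 and 293 CPM and at 180 and 327 CPM. Aplnr differed between the libraries in this ordering, at 238 and 199 CPM in PyMT-M and at 337 and 99.6 CPM in PyMT-N. Ptprb was at 475 and 1036 CPM in PyMT-M and at 370 and 476 CPM in PyMT-N. Arterial-rich cells were thus lowest in Apln and highest in Tie1 in both libraries. Depth moved with these groups, as the arterial-rich PyMT-M cells had a median of 4099 UMIs and the arterial-poor ones 5094, and its part in the values was not tested.

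With the interferon list the values were flatter. Apln was at 390 CPM in the lowest and 444 CPM in the highest group in PyMT-M and at 183 and 131 CPM in PyMT-N, and Angpt2 at 278 and 298 CPM and at 145 and 93.9 CPM. The list itself was much higher in PyMT-M, at 2366 against 805 CPM over the class. Apln and Angpt2 were therefore not higher in the interferon-rich cells of PyMT-N, and in PyMT-M the groups lay close together.

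Cycling blood endothelial cells, with at least 5 UMIs of the cycling list, were 12.6% (10.0 to 15.5%) in PyMT-M and 10.0% (8.28 to 12%) in PyMT-N. These shares were not matched for depth, and the cut is reached more easily in the deeper PyMT-N cells. The cycling list was at 447 CPM in PyMT-M and 251 CPM in PyMT-N over the class. Esm1 was at 122 CPM in cycling and 271 CPM in other PyMT-M cells and at 186 and 217 CPM in PyMT-N. Angpt2 was at 199 and 295 CPM and at 69.2 and 117 CPM. Tie1 was at 144 and 230 CPM and at 157 and 273 CPM. Cycling cells thus carried less Angpt2, Esm1 and Tie1 in CPM than the others in both libraries, and they were deeper, with a median of 8294.5 against 4628 UMIs in PyMT-M and 17401 against 12118 in PyMT-N.

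The genes were also read cell by cell. In thinned cells, Esm1 was detected in 55.8% (47.6 to 63.8%) of PyMT-M cells with Angpt2 and in 16.4% (10.9 to 23.3%) of those without. In PyMT-N the shares were 48.9% (42.7 to 55.1%) and 21.2% (18.3 to 24.3%). Apln was detected in 70.1% of PyMT-M cells with Angpt2 and 45.4% of those without, and in 36.8% and 22.6% in PyMT-N. Esm1 and Apln were thus detected in a larger share of cells with Angpt2 than of cells without it in both libraries. Esm1 was detected in 44.1% of PyMT-M cells with Apln and 25.6% of those without, and in 41.6% and 23.6% in PyMT-N. Most cells with Apln thus lacked a UMI of Esm1. Aplnr was the reverse of Esm1, with 27.0% (19.0 to 36.3%) of Esm1 cells and 53.3% (46.1 to 60.5%) of other cells in PyMT-M, and 24.1% (19.3 to 29.5%) and 53.3% (49.6 to 56.9%) in PyMT-N.

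The apelin ligand and receptor genes were then set side by side. Aplnr was detected in 37.3% (30.1 to 44.9%) of PyMT-M cells with Apln and in 52.7% (43.7 to 61.6%) of those without. In PyMT-N it was detected in 53.5% (47.4 to 59.6%) of cells with Apln and in 42.0% (38.4 to 45.6%) of those without. The PyMT-M intervals overlapped, and the difference between the libraries was not tested. Tek and Ptprb went together in PyMT-N, with Tek in 46.6% (43.0 to 50.3%) of Ptprb cells and 29.8% (24.7 to 35.4%) of others. The PyMT-M shares were alike, at 46.2% (39.6 to 52.8%) and 29.2% (19.0 to 41.1%), but their intervals overlapped. Tek and Aplnr went together in PyMT-N, with Tek in 52.6% (47.9 to 57.3%) of Aplnr cells and 32.9% (29.0 to 37.0%) of others, while the PyMT-M shares of 47.0% (38.3 to 55.8%) and 38.4% (31.1 to 46.1%) overlapped in their intervals.

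Correlations of log2(CPM + 100) over the 306 and 1022 cells gave the same grouping as a description. The cells share a library and differ in depth. Angpt2 and Esm1 had a Pearson r of 0.57 for PyMT-M and 0.40 for PyMT-N, Angpt2 and Apln 0.53 and 0.33, and Apln and Esm1 0.34 and 0.28. Aplnr and Esm1 had an r of -0.32 and -0.34, and Apln and Aplnr -0.25 and 0.04. Tek and Ptprb had 0.23 and 0.39. Tie1 was highest with Ptprb, at 0.21 and 0.18.

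**Figure D5:**
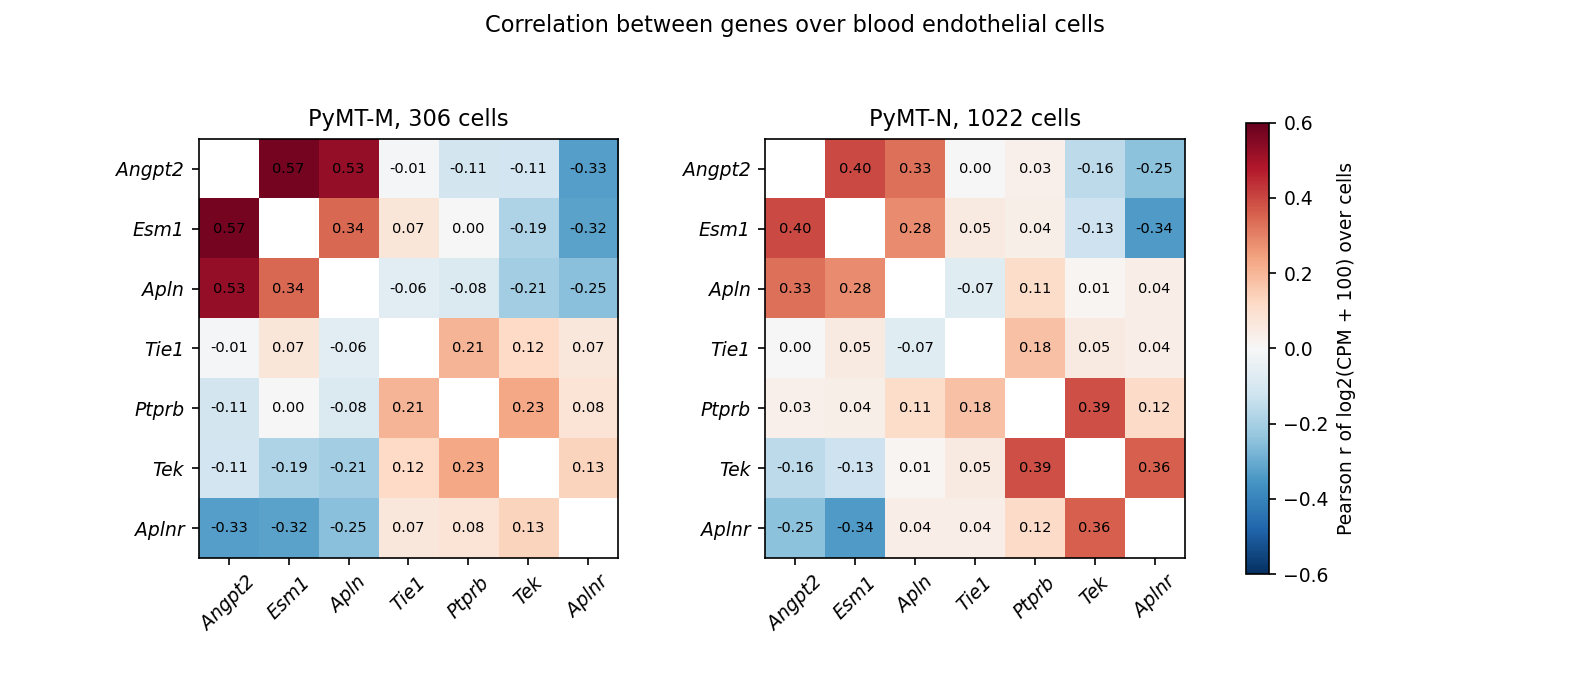
Pearson r of log2(CPM + 100) between 7 of the genes over blood endothelial cells with at least 5000 UMIs, 306 in PyMT-M (left) and 1022 in PyMT-N (right). Red is positive and blue negative. Angpt2, Esm1 and Apln form a red block in both, and Apln with Aplnr is -0.25 on the left and 0.04 on the right.

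Over 7506 genes, the patterns most like each of the 7 were named by the lower r of the libraries. Angpt2 was most like Prss23 (0.49 for PyMT-M and 0.42 for PyMT-N), Esm1, Thbs1, Adm and Ctsl, and Esm1 most like Angpt2, Prss23, Sat1, Adm and Igfbp3. Adm encodes adrenomedullin, a vasoactive peptide of tip cells. Apln was most like Ccn2 (0.44 and 0.41), Cav1, Angpt2, Angptl4 and Gapdh. Aplnr was most like Prcp (0.38 and 0.57), which encodes a peptidase, and then like Slco2a1, Lrg1, Csrp2 and Ndufa4. Tek was most like an unnamed gene listed as ENSMUSG00000121513 (0.35 and 0.47), which was also among the genes nearest Ptprb, and then like Slco2a1, Rai14, Prkch and Dnm3. Ptprb was most like Prex2 (0.53 and 0.61), Eng, Arl15 and Dnm3. Tie1 was most like Notch4 (0.27 and 0.27), Col18a1, Col4a1, Pecam1 and Cdh5, genes of arterial identity, basement membrane and junctions.

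The wider pathways were read from lists. Of 24 genes of the angiopoietin-Tie list, from ligands to Akt, Foxo and nitric oxide signaling, 19 were ranked in blood endothelial cells, with 1 at least 2-fold higher in PyMT-M, 1 at least 2-fold lower and a median log2 ratio of -0.13. Over all ranked genes 4.1% were at least 2-fold higher and 6.93% at least 2-fold lower, so the counts of this list lay near that background. The higher one was Angpt2 and the lower one the kinase gene Pak1, which had only 5 UMIs for PyMT-M and 59 for PyMT-N and is named after its value was seen. After Angpt2 and Ptprb the highest ratio was that of Klf2, a flow-responsive transcription factor gene, at 0.32 (0.20 to 0.43). The lowest of the genes with at least 10 UMIs in each library were Mmp14, a membrane protease gene, at -0.75 (-0.87 to -0.63), and the kinase subunit genes Pik3ca at -0.49 and Pik3cb at -0.34. Foxo1, the transcription factor that Tie2 signaling restrains and that drives Angpt2, was at 151 CPM in PyMT-M and 166 CPM in PyMT-N, which gave a log2 ratio of -0.13 (-0.28 to 0.01). Angpt4, another ligand gene, had 0 and 2 UMIs. Foxo1, Angpt4 and Apela are named for their roles, after their values were seen.

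The apelin list of 18 genes had 15 ranked, 1 at least 2-fold higher, 2 at least 2-fold lower and a median of -0.11, again against 4.1% and 6.93% of all ranked genes. Apln was the higher one. The lower ones were Gnai1, an inhibitory G protein subunit gene, at 8.19 CPM in PyMT-M and 33.6 CPM in PyMT-N with a log2 ratio of -2.04 (-2.65 to -1.48), and the arrestin gene Arrb2, at 4.55 and 9.10 CPM with a ratio of -1.0 (-1.88 to -0.23). Hdac5, a deacetylase gene downstream of the receptor, was at 0.67 (0.29 to 1.04), and Furin, a protease gene, at -0.58 (-0.88 to -0.29). Apela, the gene of another ligand of the receptor, had no UMI in either library.

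Among the tip cell genes, 1 of 11 was at least 2-fold higher and 2 at least 2-fold lower, with a median of -0.28, against the same 4.1% and 6.93% of all ranked genes. Adm was the higher one, at 176 CPM in PyMT-M and 84.4 CPM in PyMT-N, which gave a log2 ratio of 1.06 (0.91 to 1.20), followed by Pgf at 0.80 and Plaur at 0.29. Chst1 at -1.33 and Unc5b at -1.18 were the lower ones, and Trp53i11 was at -0.97. None of the 10 hypoxia genes passed 2-fold in either direction, with a median of 0.18, Ldha at 0.49 and Egln3 at -0.80. Of 9 arterial genes none passed 2-fold, with a median of 0.03, and of 5 cycling genes none passed it, with a median of 0.88. Set against the same background, 4 of 8 venous genes were higher and 1 lower, with a median of 0.92. Of the venous ratios 5 were above 0 and 3 below, the lowest being those of Vwf, Ephb4 and Lrg1. The venous list sum was lower in PyMT-M, at 874 CPM against 1196 CPM in PyMT-N. Of 6 ranked capillary genes 3 were higher, with a median of 1.05, and of 9 interferon genes 7 were higher, with a median of 1.68.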

How the data were processed

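Pooled single-cell libraries of PyMT-M and PyMT-N tumors were analysed. The authors deposited raw UMI counts per gene and barcode, made, per the submitters' processing notes, with Cell Ranger 8.0.0 and mm39. The annotation and counting mode were not stated in the sources used here. Reads of overlapping genes could be split or lost.

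The 8 genes, the lists and the thresholds were chosen with earlier results of these data known. A cell meeting the lymphatic and blood rules counted as lymphatic, and 13 PyMT-M and 9 PyMT-N cells meeting another pair of rules were left out. No doublet caller was run. Counts were summed per class and library and given as CPM with exact Poisson intervals, shares with exact Clopper-Pearson intervals and ratios with exact conditional binomial intervals, all at 95%. UMIs of 1 pool are not replicates, so these cover counting error only. The intervals of CPM and of ratios also leave out the spread between cells. A gene was ranked from a sum of 50 UMIs upward, and ratios of 2-fold or more were counted. A gene at 0 in a class was set to 3 counts when ranked. Cells were thinned to 5000 UMIs (3000 as an alternative).

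All 8 genes were named. From each list described, the 3 highest and 3 lowest ratios could be named, given 10 or more UMIs in each library. For likeness the 5 genes with the highest lower r, of at least 0.2, were named from genes detected in at least 10% of deep cells of both libraries. Promoters are from RefSeq on GRCm38.p6, whose coordinates differ from those of mm39. Alternatives covered limits on genes and mitochondrial UMIs, class rules, deep and cycling cells, scaling and depth, and 2 on immune and mural markers were added after seeing the data. The ratio intervals were checked on simulated Poisson counts, which hold no spread between cells, tumors or libraries. The thinning was checked on simulated counts only for the total left per cell. The computations used scipy 1.17.1 and numpy 2.4.6 in Python 3.11.15, tables were read with pandas 2.3.3, and figures were drawn with matplotlib 3.10.9.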

Additional observations from a re-analysis of the deposited data

Results flagged for a closer look

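Some genes differed between the libraries in opposite directions in different cell classes, with counting intervals apart from 0. None of these differences between classes was tested, since each state has 1 library. The tumor cell levels behind them were low. The highest was 4.83 CPM, for Angpt2 in PyMT-N, where the blood class stood at 111 CPM. For Ptprb the tumor cell levels were 0.174 CPM (PyMT-M) and 1.39 CPM (PyMT-N). Whether such transcripts came from the tumor cells themselves or were carried over from other cells was not tested.

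Angpt2, as the log2 ratio of the PyMT-M to the PyMT-N level, was at 1.32 in blood endothelial cells and -0.89 in lymphatic cells, a gap of 2.21. The lymphatic value rests on 21 UMIs in 5 of 20 PyMT-M cells. In tumor cells the Angpt2 ratio was -0.76, a gap of 2.08 from blood, at levels of 2.85 and 4.83 CPM.

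Apln had a ratio of 1.46 in blood endothelial and -2.77 in tumor cells, a gap of 4.23, with tumor levels of 0.282 and 1.92 CPM. Ptprb had a ratio of 0.62 in blood endothelial cells, 0.70 in lymphatic cells and -3.0 in tumor cells, gaps of 3.62 and 3.70, with 21 UMIs in PyMT-M tumor cells and 105 in PyMT-N ones.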

How the results depend on the processing

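Each log2 ratio of the 8 genes in blood endothelial cells was recomputed under 12 alternatives. Of the 7 ranked ratios only that of Aplnr changed sign, at 0.080 with lymphatic cells kept and 0.0058 without cycling cells. Of the 11 alternatives that gave an interval, it lay above 0 in 9 for Tek and in 10 for Esm1. Apln stayed at or above 2-fold in 12 of 12, between 1.35 and 1.86, and Angpt2 in 11 of 12, between 0.79 and 1.46. The cause of the shifts below was not tested.

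With cells thinned to 5000 UMIs the ratio was 1.74 for Angpt1, 0.018 for Tek, -0.58 for Tie1, 0.28 for Ptprb, 1.86 for Apln and -0.46 for Aplnr. The Angpt1 value rests on 1 UMI in each library, and all 11 intervals of Angpt1 under the alternatives spanned 0. With cells whose number of detected genes lay within 2-fold of the library's median, 310 for PyMT-M and 1035 for PyMT-N, it was 0.080 for Tek, -0.48 for Tie1, 0.35 for Ptprb, 1.67 for Apln, -0.30 for Aplnr and 0.31 for Esm1. With lymphatic cells kept it was 0.79 for Angpt2, 0.71 for Ptprb, 1.65 for Apln, 0.080 for Aplnr and 0.38 for Esm1. Without any tumor marker UMI it was 1.35 for Angpt1 and 1.46 for Angpt2, and without the deepest 6% of cells 1.44 for Angpt1 and 0.059 for Esm1. Without cycling cells it was 0.77 for Ptprb and 0.33 for Esm1. As a mean of CPM per cell it was 0.77 for Ptprb and 1.35 for Apln. Ptprb was at 0.55 with at least 10 endothelial UMIs and at 0.54 without cells with immune markers.

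PyMT-N lymphatic cells with at most 1 tumor marker UMI had 7.68 CPM of Angpt1, 465 of Angpt2, 252 of Tie1 and 221 of Ptprb. With each class rule on its own, PyMT-N blood endothelial cells had 158 CPM of Angpt2. With at least 200 UMIs, 0 angiopoietin-Tie genes and 1 apelin gene were at least 2-fold lower, and with no minimum 2 angiopoietin-Tie genes were.

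No paired analysis was possible because each state has 1 library, and leaving out a library was not possible for the same reason. Angpt1 in blood endothelium and the 20 PyMT-M lymphatic cells were limited by their counts.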
